A study of Mus musculus with 6 samples.

Results

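The chemokines described here are 6 secreted attractants of white blood cells: Cxcl1, Cxcl2, Cxcl3, Cxcl5 and Cxcl15, which attract neutrophils, and Ccl20. They were taken by name, as every probe set annotated to exactly one of these symbols, which gave 9 of the 45037 probe sets on the array and 6 of the 18193 genes. They were measured in whole-lung RNA of mice at postnatal day 15, on 1 Affymetrix array per sample, in 3 samples labelled wildtype control and 3 labelled Foxa2-/-. The forkhead factor Foxa2 regulates genes of airway and alveolar epithelium, and the study addressed its role in Th2 inflammation and in an excess of goblet cells. Both groups carry the same strain label, SPC(+)Cre(-), with doxycycline (Dox) from embryonic day 6.5 to 12.5. SPC is the surfactant protein C promoter, commonly used to place a doxycycline-controlled deletion in lung epithelium, so a Foxa2-/- sample of this kind still holds other lung cells with their gene intact. The Cre(-) label of the Foxa2-/- samples conflicts with their genotype label. The labels call the control and Foxa2-/- animals littermates and do not say whether 1 animal gave 1 array. The p-values therefore reflect only a spread among these samples that may be technical.

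Chemokines bind receptors on the surface of white blood cells and draw them along a concentration gradient. CXCL1, CXCL2, CXCL3 and CXCL5 act on CXCR2, the main chemokine receptor of mouse neutrophils, and are made by airway and alveolar epithelium, macrophages and stromal cells when interleukin 1, tumour necrosis factor, interleukin 17 or bacterial products activate NF-kB. CXCL15, also called lungkine, is made by lung epithelium without such a stimulus and is secreted into the airspace. CCL20 acts on CCR6 and attracts dendritic cells, B cells and T cells that make interleukin 17.

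Promoter sequences are shown because Cxcl1, Cxcl2 and Cxcl3 differed between the groups in the same direction and share a short run of letters just before their start. RefSeq's table for GRCm38.p6 held a window for 5 of the 6 genes. The last 130 bases before the annotated start are given 5′ to 3′, in lower case, with capitals where the kappa B consensus (the binding motif of NF-kB) matched on either strand.
Cxcl1, chr5:90891115-90891244, plus strand: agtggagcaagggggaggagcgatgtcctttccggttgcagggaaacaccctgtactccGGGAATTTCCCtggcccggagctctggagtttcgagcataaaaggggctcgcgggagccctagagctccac
Cxcl2, chr5:90903769-90903898, plus strand: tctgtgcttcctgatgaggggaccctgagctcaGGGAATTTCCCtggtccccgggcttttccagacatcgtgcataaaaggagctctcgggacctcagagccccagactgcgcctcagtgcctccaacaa
Cxcl3, chr5:90785971-90786100, plus strand: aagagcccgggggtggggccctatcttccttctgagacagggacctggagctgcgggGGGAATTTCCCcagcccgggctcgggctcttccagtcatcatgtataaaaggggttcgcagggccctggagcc
Ccl20, chr1:83116636-83116765, plus strand: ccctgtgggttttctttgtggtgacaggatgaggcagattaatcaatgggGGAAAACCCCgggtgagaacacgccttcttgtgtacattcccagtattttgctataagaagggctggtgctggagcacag
Cxcl15, chr5:90794404-90794533, plus strand: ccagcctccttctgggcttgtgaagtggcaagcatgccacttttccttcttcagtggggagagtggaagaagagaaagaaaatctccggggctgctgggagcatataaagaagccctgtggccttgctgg
In Cxcl1, Cxcl2 and Cxcl3 the consensus matched on both strands in 1 overlapping stretch, GGGAATTTCCC, which was the longest run common to the 3 windows of 250 bases. It began 71 bases before the start of Cxcl1, 97 before that of Cxcl2 and 73 before that of Cxcl3. The same 11 letters, on either strand, stood in 14 of 32851 windows in the table (0.0426%). The run was picked from these 3 windows, which are among the 14, so its share tests nothing about the differences. Aligned over 130 bases, Cxcl1 and Cxcl3 were 63.4% identical, Cxcl1 and Cxcl2 55.1%, and Cxcl2 and Cxcl3 53.5%. Pairs with Cxcl15 or Ccl20 were 44.8% to 51% identical. Ccl20 held 1 match of the consensus on the minus strand, and Cxcl15 held 0 in its 250 bases. Of all windows, 3.9% held a match. The forkhead motifs TGTTTAC (in 3.17% of all windows) and TGTTTGC (4.3%), the AP-1 motif TGACTCA (4.46%) and the C/EBP motif TTGCNNAA (9.56%), each searched on both strands of the 250 bases, matched in none of the 5 windows. TATAAA (12.4%) matched in Cxcl3 and Cxcl15. Such matches are descriptions of the letters and not of binding.

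Deposited values are RMA signals on a log2 scale, so 1 unit is a factor of 2, and array medians lay between 7.85 and 7.91. Foxa2 read 10.28, 10.56 and 10.28 in control replicates 1 to 3 and 7.72, 5.38 and 5.13 in Foxa2-/- replicates 1 to 3. The genotype label thus followed the signal, although the difference of -4.30 (SE 0.66) had a limma adjusted p of 0.0599. The lung markers Sftpc (type II cells), Scgb1a1 (club cells), Ager (type I cells) and Pecam1 (endothelium) read from 11.85 to 14.50 on all arrays. The 3-prime minus 5-prime signal of Gapdh, which reads RNA integrity, was 1.06 to 1.23 in controls and 0.91 to 0.97 in Foxa2-/- samples. It separated the groups, and its part in the results below was not tested. Control replicate 2 and Foxa2-/- replicates 2 and 3 share the first number in their titles, whose meaning is not given, and differences within that trio are given beside the results.

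Cxcl1, a CXCR2 ligand, was higher in every Foxa2-/- sample than in every control. Its brightest probe set, 1441855_x_at, read 7.21, 7.15 and 7.41 in the controls and 8.17, 10.06 and 8.15 in Foxa2-/- replicates 1 to 3. Replicate 2 stood 1.89 above the next array, while the controls lay within 0.26 of each other. The group means were 7.26 ± 0.14 and 8.79 ± 1.10 (log2, SD, n = 3 each), or 2.90-fold apart, with a log2 difference of 1.54 (SE 0.51, 95% interval 0.32 to 2.76). The limma adjusted p over all genes was 0.292, which did not pass the threshold of 0.05. The other probe sets of the gene, 1457644_s_at and 1419209_at, differed by 2.03 (SE 0.62) and 1.83 (SE 0.57), again with no overlap between the groups. Probe sets ending in _x_at or _s_at can hold probes that also match other transcripts, and 1419209_at carries no such mark. In whole-lung RNA, more cells that make a transcript and more of it per cell cannot be told apart, here and for the genes that follow.

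Cxcl3, another CXCR2 ligand, had the largest difference of the 6 chemokines. It read 4.64, 4.56 and 5.50 in the controls and 6.74, 9.02 and 6.33 in Foxa2-/- replicates 1 to 3, so the groups did not overlap and replicate 2 was again the highest. The means were 4.90 ± 0.52 and 7.36 ± 1.45 (log2, SD, n = 3 each), and the difference was 2.46 (SE 0.70, 95% interval 0.78 to 4.15, limma adjusted p = 0.220). All 3 control values lay below the 25th percentile of the arrays (5.69 to 5.78). A detection call is not part of these values, so the size of the ratio is uncertain.

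Cxcl2, a CXCR2 ligand that macrophages and neutrophils make in quantity, read 5.14, 5.80 and 7.25 in the controls and 7.14, 9.06 and 7.62 in the Foxa2-/- samples. Control replicate 3 lay above Foxa2-/- replicate 1, so the groups overlapped, and the controls spread over 2.11 units. The means were 6.06 ± 1.08 and 7.94 ± 1.00 (log2, SD, n = 3 each), 3.67-fold apart, with a log2 difference of 1.88 (SE 0.67, 95% interval 0.27 to 3.49, limma adjusted p = 0.328).

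Cxcl5, a ligand of CXCR2 made by stimulated alveolar type II cells, was bright on 1 array alone. It read 4.64, 4.30 and 4.99 in the controls and 5.34, 8.01 and 4.82 in the Foxa2-/- samples. Replicate 3 lay below control replicate 3, and 5 of the 6 arrays were below their 25th percentile. The groups differed by 1.41 (SE 0.80, 95% interval -0.50 to 3.32; limma adjusted p = 0.546). Without Foxa2-/- replicate 2 it was 0.43.

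Cxcl15, the lung epithelial chemokine, was near the top of the scale in all samples and differed little. Its brighter probe set, 1456428_at, read 14.02, 14.02 and 14.10 in the controls and 14.01, 14.13 and 14.06 in the Foxa2-/- samples. The difference was 0.01 (SE 0.10, 95% interval -0.23 to 0.26, limma adjusted p = 0.964), so for this probe set the interval left out a change of more than 0.26 units on this scale. The other probe set, 1421404_at, read 13.80 to 13.89 in controls and 13.91 to 14.03 in Foxa2-/- samples. There the groups did not overlap, yet the difference was only 0.12 (SE 0.11, 95% interval -0.14 to 0.37, limma adjusted p = 0.737 over all probe sets). The highest value on any array was 14.88, and signals this bright can be compressed.

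Ccl20, the ligand of CCR6, was dim and level. It read 5.74, 5.65 and 5.63 in the controls and 5.76, 5.59 and 5.63 in the Foxa2-/- samples, below the 25th percentile on all 6 arrays. The difference was -0.01 (SE 0.11, 95% interval -0.27 to 0.24, limma adjusted p = 0.972). Whether the transcript was detected at this signal cannot be read from the values, and a difference below the detection limit would not be seen.

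**Figure D1:**
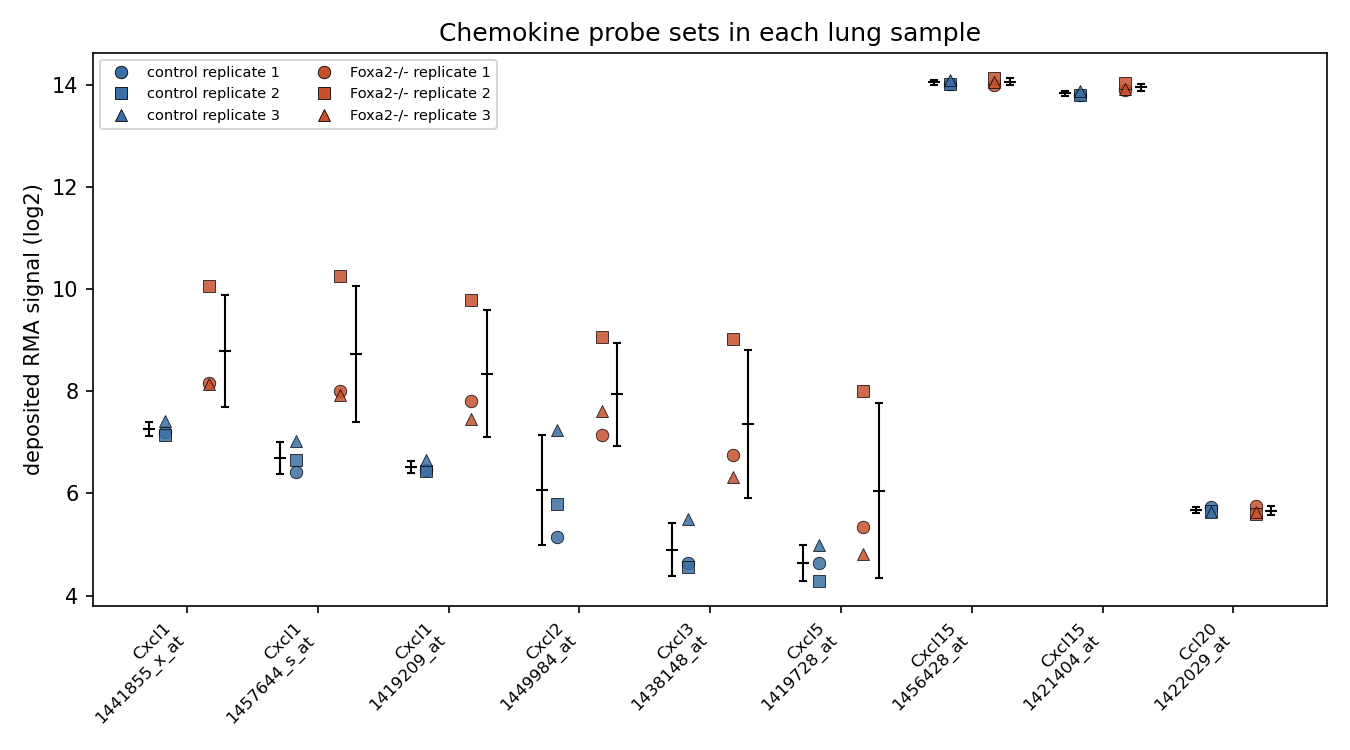
Deposited RMA signal (log2, vertical axis) of the 9 chemokine probe sets in each of the 6 samples, with black bars for the mean and SD of 3 samples per group. Values are to be compared within a probe set only: Foxa2-/- replicate 2 (orange squares) is the highest point for Cxcl1, Cxcl2, Cxcl3 and Cxcl5, whereas Cxcl15 at 13.80 to 14.13 and Ccl20 at 5.59 to 5.76 show little spread.

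Over all 6 chemokines, 0 passed the limma test at an adjusted p under 0.05, beside 0.572% of all genes in either direction and 0.473% higher. An unadjusted p under 0.05 was seen for 3 of the 6 (Cxcl1, Cxcl2 and Cxcl3), beside 12.3% of all genes. Every Foxa2-/- sample lay above every control for 2 of the 6 genes, Cxcl1 and Cxcl3, beside 10.8% of all genes, and below every control for 0, beside 8.73% (19.6% in either direction). By probe set, 5 of the 9 lay above every control, beside 9.73% of all probe sets, and 0 below, beside 7.76%. These 5 were all the probe sets of Cxcl1, that of Cxcl3 and 1421404_at of Cxcl15. Probe sets of 1 gene read the same samples again, so the count by gene is the one to read. The median difference of the 6 was 1.47 (0.67 without Foxa2-/- replicate 2), and that of all genes 0.01. The members fell into 2 kinds. Cxcl1, Cxcl2, Cxcl3 and Cxcl5 differed by 1.41 to 2.46 with wide intervals, and Cxcl15 and Ccl20 by at most 0.01 with intervals within 0.27 of 0.

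The spread among Foxa2-/- samples was wide for the CXCR2 ligands, and Foxa2-/- replicate 2 was the highest of the 6 arrays for 5 of the 6 genes, the exception being Ccl20. In SD among the Foxa2-/- samples, Cxcl1 exceeded 98.5% of all genes, Cxcl2 97.9%, Cxcl3 99.5% and Cxcl5 99.8%, against 8.39% for Cxcl15 and 15.2% for Ccl20. Among controls, replicate 3 was the highest on 8 of the 9 probe sets. Without Foxa2-/- replicate 2 the difference was 0.90 for Cxcl1 (limma adjusted p = 0.126), 1.32 for Cxcl2 (0.548) and 1.64 for Cxcl3 (0.204), so that of Cxcl1 and of Cxcl3 shrank by more than 1.5 times and stayed positive. Within the trio with a common title number (1 control, 2 Foxa2-/-) the differences were 1.95 for Cxcl1, 2.54 for Cxcl2, 3.11 for Cxcl3 and 2.12 for Cxcl5. That trio holds Foxa2-/- replicate 2 and leaves out control replicate 3, so these values rest largely on replicate 2. In the same order of genes, Foxa2-/- replicate 3 read 8.15, 7.62, 6.33 and 4.82, and control replicate 2 read 7.15, 5.80, 4.56 and 4.30. Foxa2 itself read 5.38 in Foxa2-/- replicate 2 and 5.13 in replicate 3, and was higher in replicate 1. Over replicates 1 to 3 Cxcl5 read 5.34, 8.01 and 4.82, Cxcl1 8.17, 10.06 and 8.15, and Cxcl2 7.14, 9.06 and 7.62. Any relation between the level of Foxa2 and that of the chemokines was not tested.

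**Figure D2:**
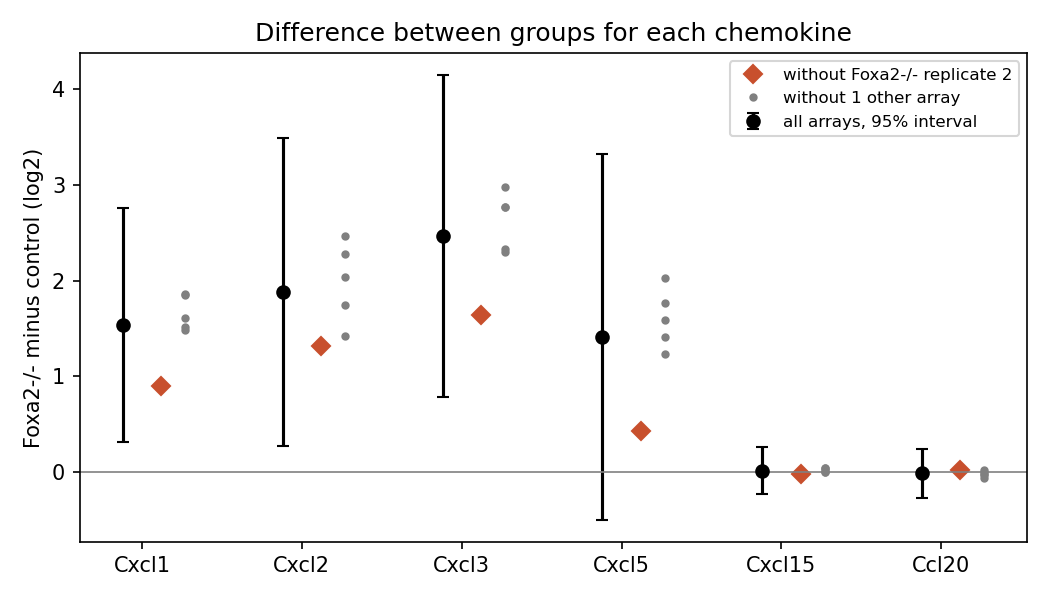
Log2 difference, Foxa2-/- minus control (vertical axis), for the 6 chemokines: black points with 95% limma intervals use all arrays, orange diamonds leave out Foxa2-/- replicate 2 and grey dots leave out 1 other array. Without replicate 2 the value moves from 1.54 to 0.90 for Cxcl1 and from 1.41 to 0.43 for Cxcl5, and Cxcl15 and Ccl20 stay within 0.07 of 0.

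The 5 CXC ligands lie on mouse chromosome 5 and Ccl20 on chromosome 1. In the RefSeq gene table of GRCm38.p6, 7 protein-coding genes follow each other there, in the order Cxcl5, Ppbp, Pf4, Cxcl3, Cxcl15, Cxcl1 and Cxcl2. Ppbp and Pf4, which encode chemokines stored in platelets, read 9.32 ± 0.01 against 9.48 ± 0.36 and 11.17 ± 0.38 against 11.32 ± 0.19 in controls and Foxa2-/- samples (log2, SD, n = 3 each). Each differed by 0.15, with 95% intervals of -0.30 to 0.61 and -0.36 to 0.66. The larger differences were therefore not in 1 unbroken stretch: Cxcl15, at 0.01, stands between Cxcl3 at 2.46 and Cxcl1 at 1.54. No test compared these genes with each other.

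**Figure D3:**
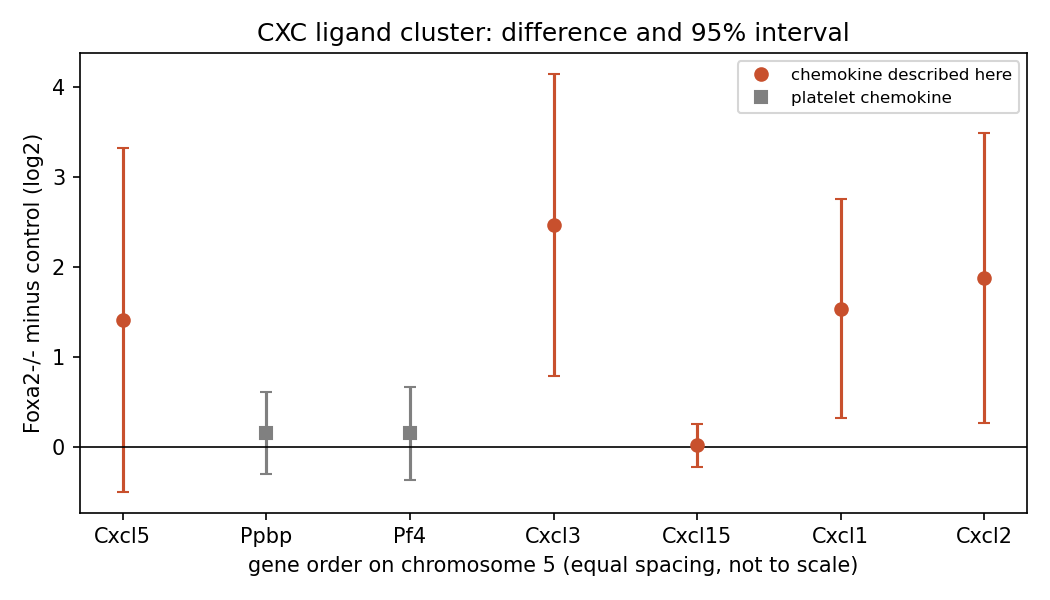
Log2 difference, Foxa2-/- minus control (vertical axis), with its 95% limma interval for the 7 CXC ligand genes in their order on chromosome 5 (horizontal axis, equal spacing). Orange circles are the chemokines described here and grey squares the platelet chemokines Ppbp and Pf4. Cxcl15 and the platelet pair lie between 0.01 and 0.15, and the others between 1.41 and 2.46.

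Among 10 other CXC ligands 0 passed the limma test, 2 had an unadjusted p under 0.05, beside 12.3% of all genes, and the median difference was 0.15 (0.34 without control replicate 3). Cxcl13, which attracts B cells, read 9.49, 9.82 and 9.68 in controls and 10.98, 12.27 and 11.10 in Foxa2-/- samples. Its groups did not overlap, and the difference of 1.78 (SE 0.35) had an adjusted p of 0.0974. Cxcl16, the ligand of CXCR6, differed by 0.49 (SE 0.14, adjusted p = 0.224). The interferon-induced ligands Cxcl9 and Cxcl10 overlapped between groups, with differences of 1.41 (SE 0.83, adjusted p = 0.564) and 1.17 (SE 0.78, adjusted p = 0.613).

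Of the receptors, 3 of 4 had a probe set named here and 0 passed the limma test, with 1 at an unadjusted p under 0.05 (Ccr6), beside 12.3% of all genes. Cxcr2, the receptor of the neutrophil-attracting ligands, read 6.20, 6.51 and 6.75 in controls and 6.30, 7.43 and 7.50 in Foxa2-/- samples. Replicate 1 lay among the controls, and the difference of 0.59 (SE 0.34) had an adjusted p of 0.557. Ccr6, the CCL20 receptor, read 7.02, 6.92 and 6.49 against 7.68, 7.77 and 6.98, with a difference of 0.67 (SE 0.25, adjusted p = 0.355) and 1 Foxa2-/- value below the highest control. Ackr1, a decoy receptor of red cells and venules that binds these chemokines, differed by 0.03 (SE 0.14, adjusted p = 0.952).

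The next list held 16 measured cytokines, receptors, sensors and 1 antagonist from the pathways that induce these chemokines. Of these 1, the antagonist, rose, 0 fell and 15 did not pass the limma test, beside 0.572% of all genes called. The median difference was 0.22. Il1rn, the secreted antagonist of interleukin 1 and so not an inducer, read 8.82, 9.27 and 9.27 in controls. In Foxa2-/- samples it read 10.66, 11.82 and 11.30. It rose by 2.14 (SE 0.30, adjusted p = 0.0499). That call stood at the threshold and ended without any array except Foxa2-/- replicate 1 (adjusted p = 0.107 to 0.201 for the other 5). It also ended with cyclic loess (0.0681), with the mean of the gene's probe sets (0.0631) and with the title number as a fixed block (0.266). Il1b, which encodes interleukin 1 beta, differed by 0.91 (SE 0.30, adjusted p = 0.285), and Tnf by 0.37 (SE 0.12, adjusted p = 0.280). Cd14, a co-receptor for bacterial lipopolysaccharide, differed by 1.10 (SE 0.21, adjusted p = 0.0913), and Il17ra, a receptor subunit for interleukin 17, by 0.50 (SE 0.15, adjusted p = 0.243). For Il1rn, Il1b, Tnf, Cd14 and Il17ra every Foxa2-/- sample lay above every control (7 of the 16 genes did so, beside 10.8% of all genes, and 1, Il22ra1, lay below, beside 8.73%). Foxa2-/- replicate 2 was the highest array for Il1rn (11.82), Il1b (10.57), Cd14 (11.42), Il17ra (10.42) and, narrowly, Tnf (6.20, beside 6.16 in replicate 1). Lbp (12.87) and Myd88 (10.20), also above every control, were highest in Foxa2-/- replicate 1. Relative to the control mean, the list median was 0.38, 0.27 and 0.25 in Foxa2-/- replicates 1 to 3, against -0.10 to 0.07 in controls. Il17a read 4.23 to 4.89 on all arrays, below the 25th percentile, and differed by 0.11 (SE 0.18, adjusted p = 0.841).

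Of 16 measured regulators of NF-kB, AP-1 and mRNA decay, 0 passed the limma test, 3 had an unadjusted p under 0.05 beside 12.3% of all genes, and the median difference was 0.12. That median was 0.0290 without control replicate 2, 0.0337 without Foxa2-/- replicate 1 and 0.26 without control replicate 3. By array, relative to the control mean, it was 0.35, 0.11 and 0.18 in Foxa2-/- replicates 1 to 3, against -0.11 to 0.15 in controls. Nfkbie, an inhibitor of NF-kB that is itself induced by it, read 8.42, 8.72 and 8.86 in controls and 10.00, 10.05 and 9.56 in Foxa2-/- samples, a difference of 1.20 (SE 0.19, adjusted p = 0.0599). Zc3h12a, an endonuclease that degrades inflammatory mRNAs, differed by 0.81 (SE 0.17, adjusted p = 0.114).

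Neutrophils are the cells that Cxcl1, Cxcl2, Cxcl3, Cxcl5 and Cxcl15 attract. Of 11 measured neutrophil genes 0 passed the limma test, 2 had an unadjusted p under 0.05 beside 12.3% of all genes, and the median difference was 0.28. The median turned to -0.0692 without control replicate 2 and was 0.15 without Foxa2-/- replicate 1. The summed signal of the list was 14.07 to 14.81 in controls and 14.16 to 14.82 in Foxa2-/- samples (log2). S100a8 and S100a9 were the brightest genes of the list and made up most of that sum. S100a8, an abundant neutrophil protein, read 12.46, 12.60 and 13.41 in controls and 12.60, 12.57 and 13.42 in Foxa2-/- samples, and S100a9 read 13.12, 13.14 and 13.76 against 12.94, 13.18 and 13.81. In both genes replicate 3 of each group was the highest, and Foxa2-/- replicate 2, with the highest Cxcl1, Cxcl2, Cxcl3 and Cxcl5, lay within the range of the controls. The rest of the list was mixed on that array. Csf3r, a receptor gene, read 7.81 there and Mmp9 9.36, each above every control (highest 7.51 and 8.67). Prtn3, given below, read 8.35 there, against a highest control of 6.42. Camp, Ngp and Elane, also of the list, lay only narrowly below every control. They read 9.50, 8.67 and 4.06, against lowest controls of 9.52, 8.69 and 4.13. The genes above every control thus stood further from the controls than those below. Relative to the control mean, the list median was -0.23 in Foxa2-/- replicate 2 and 0.37 and 0.36 in replicates 1 and 3, against -0.30 to 0.48 in controls. Prtn3, which encodes proteinase 3 of neutrophil granules, was highest in Foxa2-/- replicate 2 (8.35), with a difference of 1.51 (SE 0.42, adjusted p = 0.207), and Mmp9, a gelatinase, differed by 0.53 (SE 0.22, adjusted p = 0.401).

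Macrophages are another source of Cxcl1 and Cxcl2, and of 9 alveolar macrophage genes 2 rose, 0 fell and 7 did not pass, beside 0.473% of all genes called higher, with a median of 0.80. Every Foxa2-/- sample lay above every control for 6 of the 9, beside 10.8% of all genes. Cd68, a lysosomal protein, rose by 1.45 (SE 0.13, limma adjusted p = 0.0198) and Itgax, an integrin, by 1.94 (SE 0.23, adjusted p = 0.0360). Both calls ended without any array except Foxa2-/- replicate 1 (adjusted p = 0.0547 to 0.138 for Cd68 and 0.0696 to 0.168 for Itgax) and with the title number as a fixed block (0.242 and 0.285). The list's summed signal was 14.68 to 14.88 in controls and 15.24 to 15.71 in Foxa2-/- samples. Its median relative to the control mean was 0.33 in Foxa2-/- replicate 1, 1.22 in replicate 2 and 1.05 in replicate 3, and its part in the chemokine differences was not tested.

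Epithelial lists held 0 genes past the limma threshold. Of 8 type II cell genes 1 had an unadjusted p under 0.05, beside 12.3% of all genes. Their median was 0.04 (0.01 to 0.10 with 1 array left out). Every Foxa2-/- sample lay above every control for 3 of the 8, Sftpd and Napsa among them, beside 10.8% of all genes. For 0 every one lay below, beside 8.73%. The summed signal of these 8 genes was 16.42 to 16.57 in controls and 16.65 to 16.72 in Foxa2-/- samples. Sftpd, a surfactant collectin, differed by 0.68 (SE 0.11, adjusted p = 0.0719) and Napsa, an aspartic protease of these cells, by 0.34 (SE 0.14, adjusted p = 0.405). Of 9 club and goblet cell genes 4 had an unadjusted p under 0.05, beside 12.3% of all genes. The median of 1.10 dropped to 0.22 on leaving out control replicate 2, and to 0.64 on leaving out Foxa2-/- replicate 1. Every Foxa2-/- sample lay above every control for 3 of them (Agr2, Clca1 and Foxa3), beside 10.8% of all genes. For 2 (Cyp2f2 and Scgb3a2) every one lay below, beside 8.73%, so the list held genes of both directions. Agr2, which helps fold mucins, differed by 2.16 (SE 0.38, adjusted p = 0.0795) and Foxa3, a close relative of Foxa2, by 1.25 (SE 0.27, adjusted p = 0.123). The club cell genes Cyp2f2, a cytochrome P450, and Scgb3a2, a secretoglobin, had differences of -0.51 (SE 0.13, adjusted p = 0.165) and -0.25 (SE 0.11, adjusted p = 0.441). Clca1, secreted by goblet cells, differed by 3.50 (SE 1.11, adjusted p = 0.274), with control replicate 2 at 7.08 and the other controls at 10.95 and 11.61. Without control replicate 2 the Clca1 difference was 2.10. Of 6 type I cell genes 1 had an unadjusted p under 0.05 (Rtkn2, -0.52, SE 0.18, adjusted p = 0.302), beside 12.3% of all genes, and the median was -0.11.

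In the remaining lists 0 genes passed the limma test as well. The medians were 0.12 over 5 B cell genes, 0.15 over 5 platelet genes, -0.19 over 6 endothelial genes and -0.08 over 5 fibroblast genes. With 1 array left out they ran from 0.0408 to 0.45, from -0.0565 to 0.15, from -0.33 to -0.0848 and from -0.15 to -0.0382 in that order, so the platelet median changed sign (without Foxa2-/- replicate 1). At an unadjusted p under 0.05 stood 1 endothelial gene (Tek) and 0 of the B cell, platelet and fibroblast genes, beside 12.3% of all genes. The 2 members with the smallest p were Cd79b (0.37, SE 0.28) and Cd79a (0.32, SE 0.30) among B cell genes and Itga2b (0.21, SE 0.17) and Ppbp (0.15, SE 0.19) among platelet genes. They were Tek (-0.30, SE 0.11) and Kdr (-0.36, SE 0.18) in endothelium and Dcn (-0.67, SE 0.34) and Pdgfra (-0.19, SE 0.20) in fibroblasts. The adjusted p of these 8 genes ran from 0.333 for Tek to 0.781 for Ppbp. Of 6 genes of T cells and innate lymphoid cells that make interleukin 17, 2 were measured, Ccr6 and Il17a, given above.

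**Figure D4:**
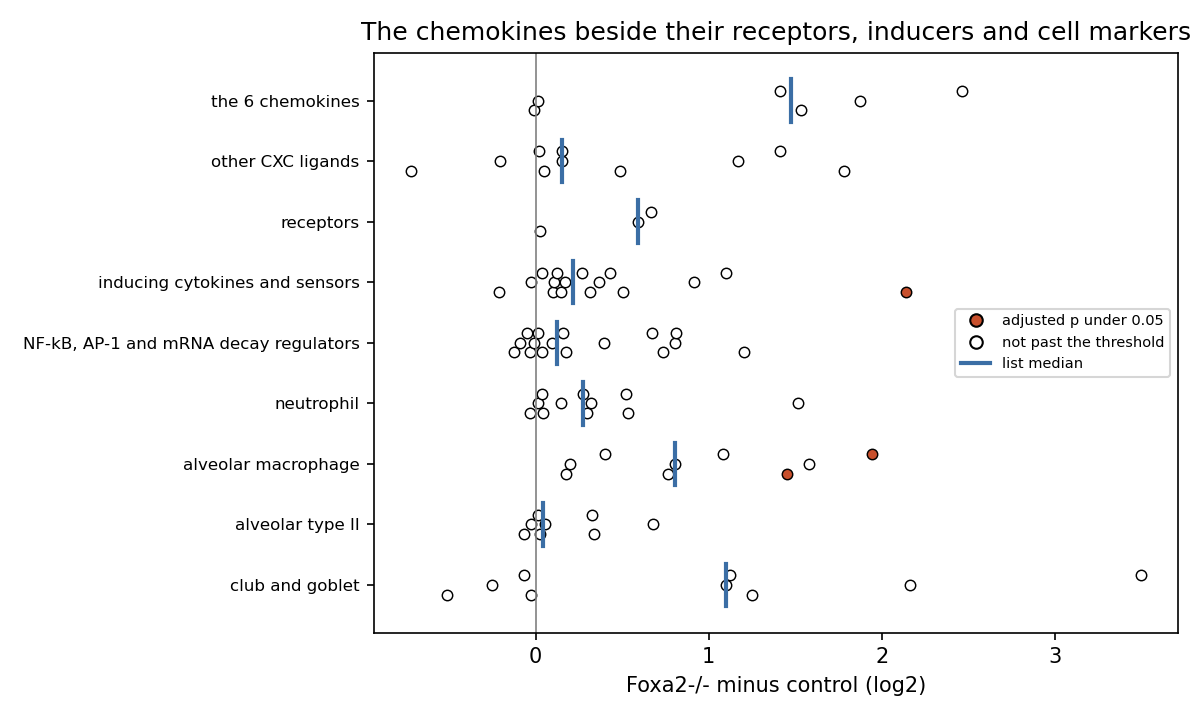
Log2 difference, Foxa2-/- minus control (horizontal axis), of the 6 chemokines and of the genes of 8 lists (rows), 1 circle per gene, filled where the limma adjusted p is under 0.05, with a blue line at each median. The chemokine median is 1.47 (0.67 without Foxa2-/- replicate 2), and those of the inducing cytokine, NF-kB and neutrophil lists are 0.22, 0.12 and 0.28 (with 1 array left out 0.20 to 0.29, 0.0290 to 0.26 and -0.0692 to 0.38); the filled circles are Il1rn, Itgax and Cd68.

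The genes whose levels ran most like each chemokine over the 6 arrays were sought among 8909 genes brighter than the median, as a description without a test, since all share the same arrays. For Cxcl1 they were Vrk1 (Pearson's r = 0.992), Msh6 (0.972) and Sh3kbp1 (0.968), and for Cxcl3 Prss35 (0.992), Emilin2 (0.978) and Msh6 (0.974). For Cxcl2 they were Hmox1 (0.989), Clip4 (0.986) and Ptp4a2 (0.982), and for Cxcl5 Rftn1 (0.998), Slc1a3 (0.983) and Fam107b (0.956). For Cxcl15 they were Prorsd1 (0.980), Ddhd1 (0.972) and Ide (0.968), and for Ccl20 Nrbp1, Zfp637 and Ptdss1 (0.990, 0.990 and 0.989). The last 6 genes accompany chemokines that barely varied. For Cxcl1, Cxcl3 and Cxcl5, Foxa2-/- replicate 2 stood 1.89, 2.27 and 2.67 above the next array, so that 1 array weighs heavily in their r.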

How the data were processed

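Whole-lung RNA of 6 samples was hybridised to Affymetrix arrays, 1 per sample. The deposited values are log2 signals made by the authors with RMA, per the submitters' processing notes; the range of values fits that scale, and the RMA version is not given in the sources used. RMA equalises the arrays, so a shift of most genes would not be seen. Of 45101 probe sets, 64 Affymetrix controls were left out. Gene symbols came from the platform annotation, and the single-symbol probe set with the highest mean stood for each of 18193 genes. Groups follow the genotype label, and replicates are numbered in accession order and pair nothing. The comparison used limma 3.58.1 under R 4.3.3 (lmFit, eBayes, no covariate, two-sided), with Benjamini-Hochberg adjustment over all genes, or over all 45037 probe sets where stated, and 95% intervals. With 3 samples per group the smallest exact permutation p is 0.1, so none is given.

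The 6 chemokines and 14 companion lists (120 different genes, 107 measured) were chosen with earlier results of these data known, and no list was tested. Named are all 6 chemokines, Foxa2, the lung markers, the receptors, from each other list up to 4 genes that passed or else the 2 with the smallest p, and for each chemokine its 3 most similar genes. Il1b, Tnf, Cd14, Il17ra, Lbp, Myd88, S100a8, S100a9, Csf3r, Camp, Ngp, Elane, Il22ra1, Cyp2f2, Scgb3a2, Clca1, Cxcl9, Cxcl10 and Pf4 were named after their values were seen. The test was checked on simulated data drawn with each gene's own mean and spread. It recovered 46.3% of changes of 1 log2 unit, 83.6% of 2 units and 87.9% of 3 units, with 10 unchanged genes called. Alternatives were median centring, cyclic loess, a filter on dim signal, each array left out, averaging over a gene's probe sets, a trended and robust eBayes, weights per array, and the title number (random block with statmod 1.5.0, fixed block, or only the 3 samples with a common number). Promoter windows came from RefSeq (GRCm38.p6).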

Additional observations from a re-analysis of the deposited data

How the results depend on the processing

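Cxcl1, Cxcl2, Cxcl3 and Cxcl5 kept a positive difference in all 56 alternatives run on them and stayed short of the limma threshold in each that has a test, with adjusted p from 0.0863 (Cxcl2, array weights) to 0.803. Cxcl15 and Ccl20 lay so near 0 that their sign turned: Ccl20 was 0.0110 with median centring and -0.0630 to 0.0228 with 1 array left out, and Cxcl15 was -0.0187 to 0.0442 with 1 left out and 0.0720 within the shared title number. Only Cxcl15 of the 6 passed the filter on dim signal. Foxa2 passed with trend and robust settings (-4.30, adjusted p = 0.0440), array weights (-4.95), the random block (-4.64) and without Foxa2-/- replicate 1 (leave-one-out range -5.12 to -3.83).

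The number of genes called, 104 with all arrays, was 48 with cyclic loess, 52 above the median of signal, 607 with array weights, 399 with a random block on the title number, 0 with it as a fixed block (2121 at an unadjusted p under 0.05) and 0 to 249 with 1 array left out (1654 to 2866 at an unadjusted p under 0.05). The count of 0 came on leaving out controls 1 or 2 or Foxa2-/- replicate 3. Of 45 probe sets called, the numbers were 6 with cyclic loess, 72 with trend and robust settings, 564 with array weights, 279 and 0 with the random and fixed blocks (4507 at an unadjusted p under 0.05 in the latter) and 0 to 144 with 1 array left out (0 without any 1 control or Foxa2-/- replicate 3, with 3477 to 4489 at an unadjusted p under 0.05). Why array weights and blocks move the counts was not tested.

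Signs also turned in other genes near 0. Ackr1 was -0.0041 with cyclic loess and -0.0761 to 0.13 with 1 array left out. Ppbp was -0.0186 with array weights, -0.0635 with the fixed block and -0.0565 to 0.28 with 1 left out. S100a9 was 0.16 with array weights, 0.12 and 0.35 with the random and fixed blocks and -0.28 to 0.18 with 1 left out. With the fixed block Il17a was -0.0648 and Dcn 0.0543. With 1 array left out S100a8 ran from -0.24 to 0.33, Pf4 from -0.0118 to 0.36, Il17a from -0.0583 to 0.27 and Pecam1 from -0.21 to 0.0462. Of 676 alternatives on the other named genes 609 kept direction and call, and of 431 on the lists 39 moved a count or median. The limits are 3 arrays per group and signal below the 25th percentile of the array for Ccl20 on all 6 arrays, Cxcl5 on 5 and Cxcl3 on the 3 controls.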
